A study of Mus musculus with 6 samples.

Results

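Homologous recombination, the Fanconi anaemia pathway, mismatch repair and the checkpoint kinases that watch over them were described through 32 genes, listed by name for their known roles. Of these, 30 had at least 1 probe set that the platform table gives to that gene alone, and they are the genes described here, out of 18193 genes measured in all. Xrcc2 and Rbbp8 had no such probe set and were not analysed here. For each gene the probe set with the highest mean of log2(signal + 16) over the 6 arrays was used.

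The cells were Ba/F3, a mouse cell line labelled as pro-B and dependent on the cytokine interleukin-3. All cultures carried a retroviral construct that encodes SPAG9-JAK2, a fusion of the scaffold protein SPAG9 with the tyrosine kinase JAK2, behind a promoter switched on by doxycycline. The induced group (3 arrays) received doxycycline at 500 ng/ml, and the uninduced group (3 arrays), called mock in the labels, received 0 ng/ml. RNA was extracted after 48 hours. Doxycycline given to cells without the fusion was not analysed here, so the drug and the fusion cannot be told apart. The labels do not say whether the cells were 1 clone, whether interleukin-3 was in the medium, or whether the triplicates came from separate experiments, so p-values measure the spread between these cultures, which may be technical. The comparison thus asks which genes differ between these cultures with and without doxycycline.

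Homologous recombination repairs broken DNA by copying an intact sister chromatid, so it works mainly once DNA has been replicated. The Fanconi pathway clears crosslinks between the DNA strands and hands the resulting break to recombination, while mismatch repair removes base errors left by the replication polymerases. The kinases ATM and ATR sense broken and single-stranded DNA and hold the cell cycle through CHEK2 and CHEK1. Many genes of these pathways are transcribed most in late G1 and S phase, under E2F factors in dividing cells.

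Promoters of the described genes were searched for 4 motifs because most of these genes stood a little higher in induced cells together, as given further on. RefSeq (GRCm38.p6) gave a window from 250 bases before to 50 bases after the start for 25 of the 30 genes. The E2F motif, searched as TTTCCCGC, TTTCGCGC, TTTGCCGC or TTTGGCGC on both strands, was in a window of 8 of the 25 genes (32%), against 2.6% of 27025 genes with a window. It was also in 11 of 25 replication licensing and fork genes (44%) and 5 of 14 other mismatch repair genes (35.7%), lists described below. It was in 3 of 17 other checkpoint genes (17.6%) but 3 of 41 other recombination and Fanconi genes (7.32%). Among the described genes it was in 3 of 10 recombination, 1 of 7 Fanconi, 2 of 3 mismatch repair and 2 of 5 checkpoint genes. The 8 genes were Bard1, Brca2, Rad51c, Fancg, Msh3, Msh6, Chek2 and Topbp1. The STAT motif, searched as TTCNNNGAA, which reads the same on both strands, was in 2 of the 25 (8%), Rad54l and Fancl, against 9.55% of all genes. The CCAAT box (CCAAT) was in 14 of 25 (56%, against 41.1%), and the cell cycle homology region (TTTGAA) in 1 of 25 (4%, against 20.2%). These shares move with base composition, were not tested, and are descriptions of letters in these windows, not of bound factors. One window is shown for each functional group with an E2F match in capitals, and Rad54l, the gene with the largest difference, with its STAT match in capitals, each 5′ to 3′ on the gene's strand in GRCm38.p6.
Bard1, chr1:71102923-71103222, minus strand: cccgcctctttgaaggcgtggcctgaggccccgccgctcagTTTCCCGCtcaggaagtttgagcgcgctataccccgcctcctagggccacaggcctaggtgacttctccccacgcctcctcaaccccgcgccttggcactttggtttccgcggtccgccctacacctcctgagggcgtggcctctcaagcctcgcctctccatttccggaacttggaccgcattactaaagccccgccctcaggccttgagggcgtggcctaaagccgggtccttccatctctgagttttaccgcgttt
Fancg, chr4:43010252-43010551, minus strand: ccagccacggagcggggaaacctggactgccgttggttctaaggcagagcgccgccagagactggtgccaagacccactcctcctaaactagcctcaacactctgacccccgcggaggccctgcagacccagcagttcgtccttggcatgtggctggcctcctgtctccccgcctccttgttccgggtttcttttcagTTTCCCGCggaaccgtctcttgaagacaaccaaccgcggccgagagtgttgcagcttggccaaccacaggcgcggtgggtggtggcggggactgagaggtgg
Msh3, chr13:92354954-92355253, minus strand: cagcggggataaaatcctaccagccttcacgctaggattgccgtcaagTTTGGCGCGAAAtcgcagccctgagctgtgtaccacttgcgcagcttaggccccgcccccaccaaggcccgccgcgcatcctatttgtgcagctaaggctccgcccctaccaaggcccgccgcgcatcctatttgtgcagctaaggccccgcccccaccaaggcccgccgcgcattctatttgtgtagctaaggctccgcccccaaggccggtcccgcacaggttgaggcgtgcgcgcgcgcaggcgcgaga
Topbp1, chr9:103305077-103305376, plus strand: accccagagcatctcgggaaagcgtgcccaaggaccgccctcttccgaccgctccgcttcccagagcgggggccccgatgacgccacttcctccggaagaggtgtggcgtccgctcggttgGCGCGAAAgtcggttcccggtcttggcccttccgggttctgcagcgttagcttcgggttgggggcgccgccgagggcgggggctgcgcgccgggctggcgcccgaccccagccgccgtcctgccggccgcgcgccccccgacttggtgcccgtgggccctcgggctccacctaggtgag
Rad54l, chr4:116123641-116123940, minus strand: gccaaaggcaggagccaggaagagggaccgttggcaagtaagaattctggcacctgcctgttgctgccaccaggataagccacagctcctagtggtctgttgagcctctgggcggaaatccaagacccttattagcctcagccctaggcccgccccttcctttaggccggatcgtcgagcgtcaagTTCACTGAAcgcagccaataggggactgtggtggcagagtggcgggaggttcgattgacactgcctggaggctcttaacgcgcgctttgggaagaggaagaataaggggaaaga

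The match began 209 bases before the start in Bard1, 52 in Fancg, 129 in Topbp1 and 64 in Rad54l. Msh3 held TTTGGCGC on one strand and TTTCGCGC on the other, overlapping, from 202 and 198 bases before the start. The median log2 difference between induced and uninduced cells was 0.34 for the 8 genes with an E2F match and 0.34 for the 17 with a window and no match.

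Before the results, the arrays. Each had been scaled by the authors to the same trimmed mean of 500, and median signals ran from 46.3 to 63.8, highest on the arrays numbered 1 in both groups (55.2 induced, 63.8 uninduced). The 3′ to 5′ signal ratio of the control probe sets for Actb, a sign of RNA or labelling quality, was also highest on those arrays, at 1.57 and 1.60, against 1.14 and 1.15 on the other induced and 1.32 and 1.37 on the other uninduced arrays. The same ratio for Gapdh did not follow this order, at 0.658, 0.609 and 0.697 on induced and 0.688, 0.793 and 0.761 on uninduced arrays 1 to 3. All 30 genes had a mean level above 5.89 on the log2 scale, the level under which 90% of 27 genes of liver or brain, taken to be silent here, lay. Of 14 pro-B markers 6 did so, led by Ptprc (13.38) and Cd79b (8.59). Igll1 (6.16), Pax5 (6.06), Blk (5.94) and Vpreb1 (5.91) were close to that level. Rag1 (4.29) and Cd24a (4.42) were lowest, and Ebf1 (5.27) and Cd79a (5.23) were near the middle of the silent genes (5.27). So did 3 of 6 T cell, 3 of 10 mast cell and 3 of 10 fibroblast and epithelial markers lie above 5.89. The count of pro-B markers thus does not set these cells apart as pro-B. Of 5 interleukin-3 line markers 3 lay above 5.89, and Kit (5.47) and Cd34 (4.74) were lowest. The 3 were the receptor subunits Csf2rb (13.80), Csf2rb2 (13.25) and Il3ra (9.16), which serve interleukin-3. The cytokine receptor was thus well measured, while 8 of the 14 pro-B markers lay at the level of silent genes. Jak2 and Spag9 stood at -0.54 ± 0.41 and -0.92 ± 0.33 (log2 difference ± SE), neither past the threshold in limma (adjusted p of 0.542 and 0.234), and the labels do not say whether their probe sets can read the fusion. Jak2 signals were 1430, 1740 and 1600 on induced and 1175, 3439 and 3081 on uninduced arrays 1 to 3. Spag9 signals were 2219, 1667 and 1938 against 2222, 4702 and 4660. In both genes uninduced replicate 1 thus lay apart from the other uninduced arrays and nearer the induced ones, and the reason was not tested.

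Most of these repair genes had somewhat more RNA in induced cells, by less than 2-fold with the brightest probe set except in Rad54l (2.15-fold), and none passed the test over all genes. The difference, induced minus uninduced on log2(signal + 16), was positive for 28 of 30 genes, with a median of 0.35 and a range from -0.19 to 1.11. Over all 18193 genes it was positive for 44.1%, with a median of -0.06. With limma, 0 of 30 passed an adjusted p of 0.05, where 34 of 18193 genes (0.187%) did, 21 of them higher (0.115%). The higher genes were 61.8% of those called, and 80.6% after median centring. At an unadjusted p under 0.05, 11 of 30 were higher and 0 lower, against 7.14% higher and 10.3% lower among all genes. The 3 induced arrays all lay above the 3 uninduced ones for 17 of 30 genes (10.7% of all genes), and all below for 0 (13.4% of all genes). The list applies no threshold on measured values, but it was drawn up with earlier results of these data known, so these counts describe the genes and are no test of the list.

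**Figure D1:**
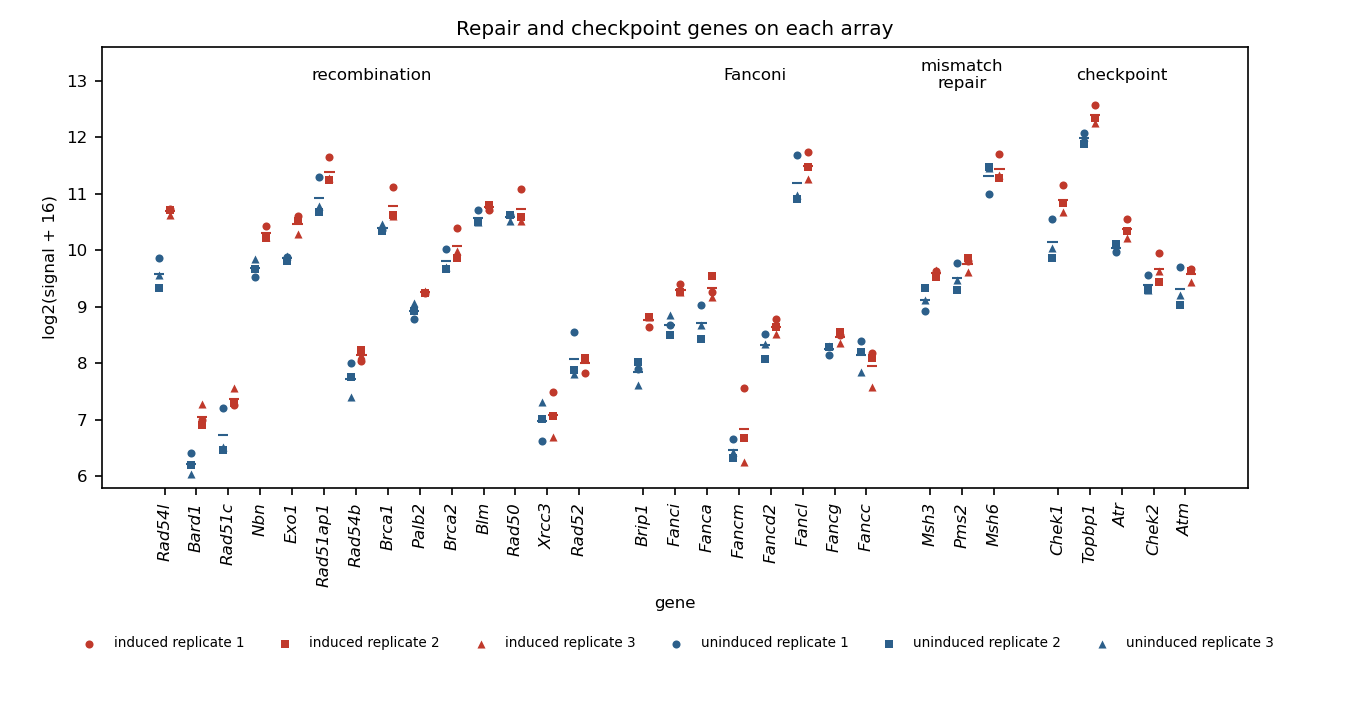
Level of each of the 30 genes on each array, as log2(signal + 16), with induced arrays in red, uninduced arrays in blue, a marker shape for each replicate number and a bar at each group's mean. The groups do not overlap for 17 genes, among them Rad54l, Bard1, Brip1 and Chek1, and they overlap for Rad52, Xrcc3 and Msh6. Levels of different genes are not comparable, since they come from different probe sets.

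Rad54l, a DNA translocase that helps the recombinase filament invade the intact duplex, had the largest difference. Its signals were 1690, 1658 and 1563 on induced arrays 1 to 3 and 914, 627 and 740 on uninduced arrays 1 to 3. The lowest induced array thus lay far above the highest uninduced one. The difference was 1.11 ± 0.19 (SE), a fold of 2.15 with a 95% interval from 0.66 to 1.56 on the log2 scale, and the adjusted p in limma was 0.0897. Its relative Rad54b, a second translocase of this kind, gave 248, 285 and 266 against 240, 202 and 153. For Rad54b the groups also stood apart, but uninduced replicate 1 was nearly level with induced replicate 1, and the difference was 0.42 ± 0.20 (adjusted p of 0.343 in limma).

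The genes of the BRCA1 complexes stood at unequal distances. BRCA1 and BARD1 form a ubiquitin ligase that steers breaks towards recombination. Bard1 signals were 112, 103 and 139 on induced and 69.3, 57.2 and 50.2 on uninduced arrays, all low but without overlap, and the difference was 0.84 ± 0.18 (interval 0.39 to 1.28, adjusted p of 0.132 in limma). Brca1 itself gave 2205, 1569 and 1544 against 1303, 1289 and 1396. Here induced replicate 1 stood well above the other induced arrays, so the spread was 375 (SD, n = 3) in induced and 57.8 (SD, n = 3) in uninduced cells, and the difference was 0.39 ± 0.19. Palb2, the bridge from BRCA1 to BRCA2, was tight in induced cells at 594, 593 and 606, against 425, 468 and 520, a difference of 0.34 ± 0.15. Brca2, which loads the recombinase onto single-stranded DNA, overlapped between the groups (1333, 916 and 1005 against 1023, 802 and 824) and stood at 0.28 ± 0.21.

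Among the recombinase cofactors the values were less regular. Rad51c encodes a paralog of the recombinase. Its signals were 137, 141 and 174 against 132, 72.0 and 75.5, so uninduced replicate 1 lay close to the induced arrays. The difference was 0.64 ± 0.25 over all arrays, 0.04 between the arrays numbered 1 and 0.94 between those numbered 2 and 3. Xrcc3, the partner of RAD51C, showed the opposite picture, with 164, 119 and 87.3 against 83.2, 113 and 144. Its differences were 0.86 between the arrays numbered 1 and -0.28 between the others, and 0.10 ± 0.28 in all. Rad51ap1, which stimulates strand pairing, gave 3215, 2415 and 2474 against 2508, 1622 and 1744 and stood at 0.48 ± 0.23, with uninduced replicate 1 above 2 induced arrays. Rad52, known for annealing single strands, was 1 of the 2 genes with a negative value, -0.08 ± 0.24, from 211, 257 and 257 against 358, 221 and 209. Its sign rested on the arrays numbered 1, since it was 0.15 without the uninduced and 0.01 without the induced one.

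Genes that sense and trim DNA ends divided into nearly level ones and others that stood apart. NBN and RAD50 are subunits of the complex that binds broken ends first. Nbn gave 1368, 1182 and 1192 on induced and 727, 796 and 909 on uninduced arrays, and stood at 0.62 ± 0.17 (adjusted p of 0.159 in limma). Rad50 gave 2151, 1534 and 1445 against 1563, 1559 and 1460 and stood at 0.14 ± 0.20. For Rad50 induced replicate 1 alone exceeded the uninduced arrays, and without that array the value was -0.04. Exo1, a nuclease of end resection and of mismatch repair, gave 1542, 1456 and 1235 against 932, 888 and 944, a difference of 0.60 ± 0.16 (adjusted p of 0.159 in limma). Blm, a helicase that acts in resection and in dissolving joined molecules, gave 1671, 1766 and 1723 against 1661, 1442 and 1429. Its groups did not overlap, yet the lowest induced and highest uninduced arrays were almost equal and the difference was small, 0.19 ± 0.15, with an interval from -0.17 to 0.55.

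The 14 recombination genes together had a median difference of 0.41, with 13 positive. At an unadjusted p under 0.05 in limma 5 were higher (Bard1, Rad51c, Rad54l, Nbn and Exo1), against 7.14% of all genes. In 9 the induced arrays all lay above the uninduced ones, against 10.7% of all genes.

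**Figure D2:**
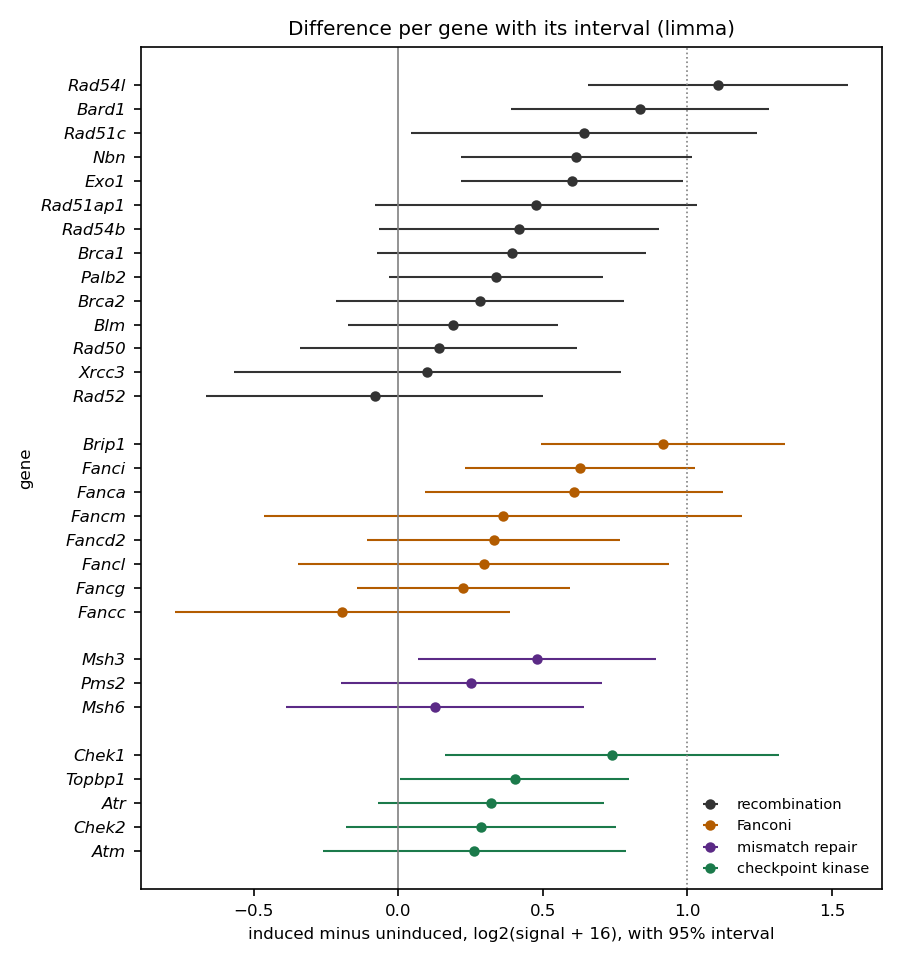
Difference per gene, induced minus uninduced, on the log2(signal + 16) scale, with its 95% interval from limma, coloured by functional group; the dotted line marks 2-fold. The interval lies above 0 for 11 genes and spans 0 for 19, and Rad54l, at 1.11, is the 1 gene past the dotted line.

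Among the Fanconi genes Brip1, Fanci and Fanca had the largest differences, and differences between these genes were not tested. BRIP1 is a helicase that binds BRCA1. Brip1 signals were 384, 434 and 438 in induced and 223, 244 and 180 in uninduced cells, with no overlap. The difference was 0.92 ± 0.17, a fold of 1.89 with an interval from 0.49 to 1.34, and the adjusted p in limma was 0.107. FANCI and FANCD2 form the pair that the pathway marks with ubiquitin. Fanci gave 660, 599 and 595 against 396, 345 and 444, a difference of 0.63 ± 0.16 (adjusted p of 0.156 in limma). Fancd2 gave 423, 384 and 352 against 352, 255 and 309, so that the lowest induced and the highest uninduced arrays met, and it stood at 0.33 ± 0.18.

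The core complex, which carries out that marking, held both the lowest and some higher values. Fanca, a scaffold of the complex, gave 600, 729 and 562 against 511, 331 and 394, a difference of 0.61 ± 0.21 (adjusted p of 0.230 in limma), which was 0.22 between the arrays numbered 1 and 0.80 between the others. Fancg, which binds FANCA, stood at 0.23 ± 0.15 from 347, 362 and 312 against 267, 297 and 302. The groups of Fancg stood apart by a narrow gap. Fancl, the ubiquitin ligase of the complex, overlapped (3401, 2833 and 2431 against 3301, 1901 and 2008) and stood at 0.30 ± 0.27. Fancm, the translocase that anchors the complex on DNA, was dim, with 173, 86.1 and 60.5 against 84.8, 64 and 70.2. Its difference of 0.36 ± 0.34 came from induced replicate 1, and without that array it was -0.0028. Fancc was the second gene with a negative value, -0.19 ± 0.24, with 275, 258 and 175 against 320, 280 and 213, and its groups overlapped. Together the 8 Fanconi genes had a median of 0.35, with 7 positive. At an unadjusted p under 0.05 in limma 3 were higher (Brip1, Fanci and Fanca), against 7.14% of all genes, and 4 were higher without overlap, against 10.7%.

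The 3 mismatch repair genes differed in how far they stood from 0. MSH3 and MSH6 are the alternative partners that give the mismatch sensor its taste for larger loops or for single base errors, and PMS2 is the nicking subunit that follows. Msh3 gave 782, 724 and 787 in induced and 470, 633 and 538 in uninduced cells, without overlap, a difference of 0.48 ± 0.17 (adjusted p of 0.233 in limma). Msh6 gave 3340, 2472 and 2559 against 2041, 2823 and 2812. The arrays of Msh6 numbered 1 differed by 0.71 and the others by -0.16, so its total of 0.13 ± 0.21 changed sign with 1 pair of arrays. Pms2 gave 888, 919 and 767 against 858, 614 and 695, overlapping, and stood at 0.25 ± 0.19. The median of the 3 was 0.25, with 3 positive. At an unadjusted p under 0.05 in limma 1 was higher (7.14% of all genes), and 1 was higher without overlap (10.7%), and 3 genes are too few to compare with these shares.

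The checkpoint genes were all positive, and the ATR branch included the largest value. ATR acts at stalled forks, TOPBP1 activates it and CHEK1 carries its signal to the cell cycle. Chek1 gave 2254, 1813 and 1633 on induced and 1484, 912 and 1044 on uninduced arrays, a difference of 0.74 ± 0.24 (interval 0.16 to 1.32, adjusted p of 0.210 in limma). Topbp1 gave 6089, 5195 and 4866 against 4296, 3770 and 4102 and stood at 0.40 ± 0.16, and Atr, with 1485, 1284 and 1175 against 991, 1094 and 1048, at 0.32 ± 0.16. In these 3 genes the groups did not overlap (10.7% of all genes). In the break-sensing branch they did, through uninduced replicate 1 alone. Atm gave 796, 781 and 682 against 819, 510 and 579, with the highest value on uninduced replicate 1, and stood at 0.26 ± 0.22. Chek2, its effector kinase, gave 975, 681 and 779 against 741, 616 and 616 and stood at 0.29 ± 0.19. Without uninduced replicate 1 the groups stood apart for Atm and Chek2 as well (21.3% of all genes). The differences were then 0.46 for Atm and 0.37 for Chek2, against 0.94 for Chek1, 0.44 for Topbp1 and 0.29 for Atr. Over all arrays the median of the 5 was 0.32, with 2 higher at an unadjusted p under 0.05 in limma (Chek1 and Topbp1), against 7.14% of all genes. The difference between the 2 branches was not tested.

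A missed threshold does not show that these genes were level. The median SE was 0.19, and the 95% interval reached 2-fold or more for 10 genes and stayed under it for 20.

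Other probe sets of the same genes mostly pointed the same way. The 30 genes had 69 probe sets, 21 genes having more than 1, and 29 of the 39 probe sets not used had the sign of the one used. Fitted over all probe sets in limma, 0 of the 69 passed (0.0658% of all 34945 probe sets did so as higher), 22 were higher at an unadjusted p under 0.05 (7% of all) and 0 lower (8.95% of all). Chek1 gave 0.74 with the brightest, 0.87, 0.64 and 0.37 with the next 3, and -0.02 with the dimmest, at a mean level of 4.73. Rad51ap1 gave 0.48, 0.37, 0.85 and 0.64. Sizes varied more elsewhere. Rad51c gave 0.64 ± 0.25 and, with a second probe set of nearly equal mean level (7.03 against 7.05), 0.18 ± 0.32, so its size depended on which of them was used. Rad54l gave 1.11 with the brightest and 0.41, 0.54 and 0.69 with the others, Exo1 gave 0.60 and, with its second probe set, 1.34, and Topbp1 gave 0.40 and 0.86. Fanci gave 0.63 and, with a second probe set whose mean level lay under 5.89, 1.38, so that the mean of its probe sets was 1.01. The dimmest probe sets of Exo1 (-0.53) and Brca1 (-0.45) opposed the one used, at mean levels of 5.32 and 5.93, as did 1 probe set each of Fancl (-0.19), Fancm (-0.14), Fancd2 (-0.12), Xrcc3 (-0.08), Msh3 (-0.07), Rad52 (0.04) and Fancc (0.02).

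**Figure D3:**
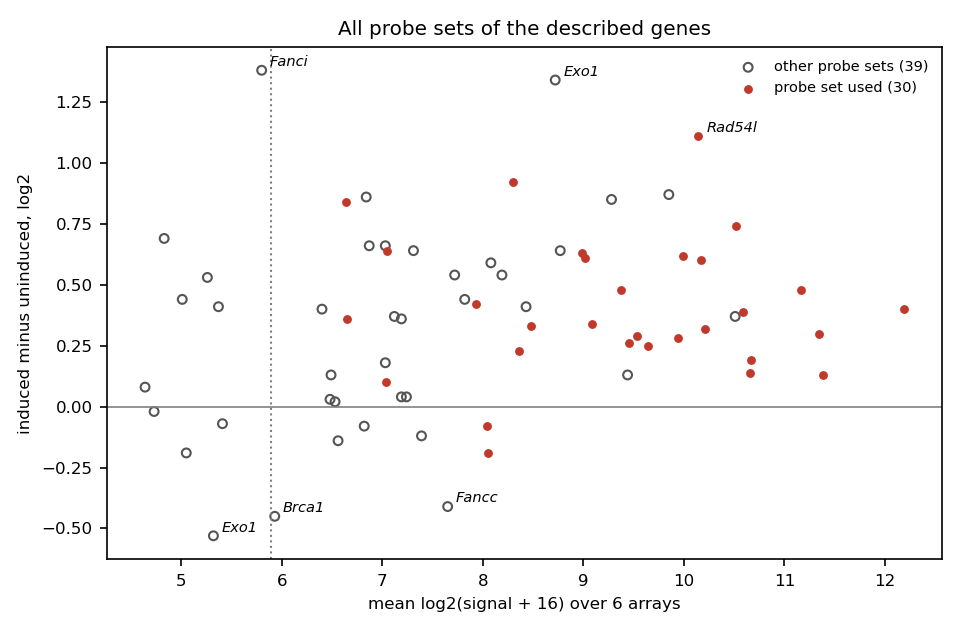
Difference between induced and uninduced cells against mean level for the 69 probe sets of the 30 genes, both on the log2(signal + 16) scale, with the probe set used in red and the other 39 as open circles; the dotted line at 5.89 marks the upper level of the silent genes. Of the used probe sets 28 lie above 0, and the most negative open circles belong to Exo1, Brca1 and Fancc.

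The arrays numbered 1 were compared with the rest. For 19 of the 30 genes replicate 1 gave the highest of the 3 uninduced signals, and for 19 replicate 1 gave the highest of the 3 induced signals. The same counts over all genes are not given here. The median signal of all probe sets was also highest on these arrays (55.2 induced, 63.8 uninduced), so this need not be particular to these genes. The mean level over the 30 genes was 9.69, 9.53 and 9.45 on induced arrays 1 to 3 and 9.28, 9.07 and 9.11 on uninduced arrays 1 to 3, so the groups stood at 9.56 ± 0.12 (SD, n = 3) and 9.15 ± 0.12 (SD, n = 3) and did not overlap. The median difference was 0.46 between the arrays numbered 1, with 27 genes positive, and 0.36 between those numbered 2 and 3, with 26 positive. Over all genes it was -0.05 in both, with 8343 of 18193 positive between the arrays numbered 2 and 3. Sign and size moved apart for Rad52, Xrcc3, Msh6, Rad50 and Atm, which had opposite signs in the 2 sets of arrays.

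**Figure D4:**
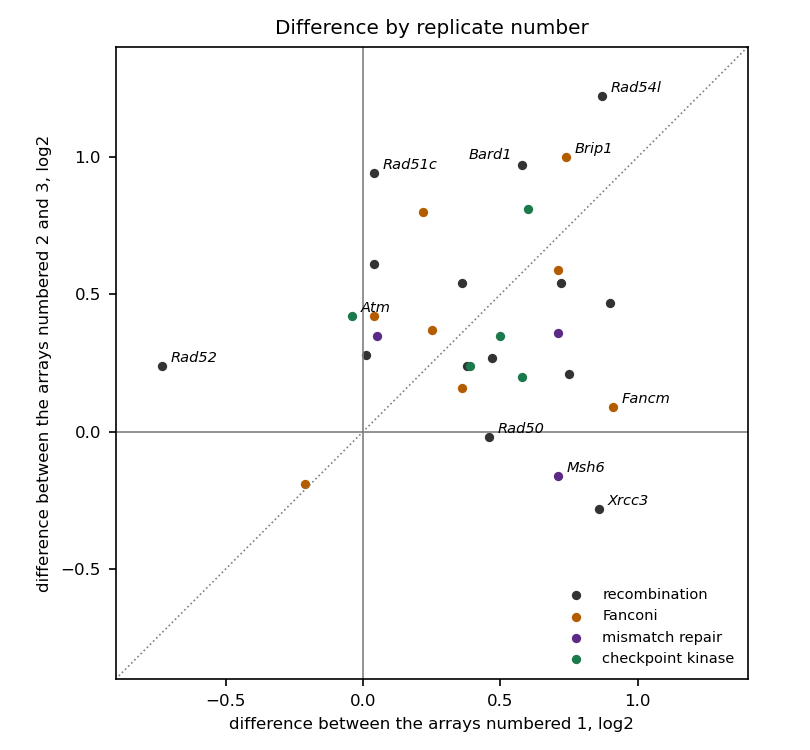
Difference between induced and uninduced cells, in log2 units, for each of the 30 genes between the arrays numbered 1 (x axis) and between the means of those numbered 2 and 3 (y axis), coloured by functional group; the dotted line marks equality. Rad54l, Bard1 and Brip1 are high on both axes (0.87 and 1.22 for Rad54l), whereas Xrcc3 (0.86 and -0.28) and Rad52 (-0.73 and 0.24) lie on opposite sides of 0.

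The calls depended on 1 array and on the fit. Without uninduced replicate 1, 4 of 30 genes rose past the threshold in limma, Rad54l (1.24 ± 0.15, adjusted p of 0.0213), Rad51c (0.88 ± 0.16, 0.0417), Bard1 (0.93 ± 0.17, 0.0438) and Brip1 (0.94 ± 0.18, 0.0469), where 3.22% of all genes were higher. The groups then did not overlap for 24 of 30 (21.3% of all genes). Without both arrays numbered 1, a choice made after seeing the data, Rad54l alone passed (adjusted p of 0.0416 in limma, with 2.88% of all genes higher), and the groups did not overlap for 25 of 30 (26.3%). Leaving out genes under the median level of all probe sets, which tests 9644 genes and keeps all 30, gave 5 genes in limma, Rad54l, Brip1, Bard1, Exo1 and Fanci (2.80% of the genes then tested were higher). Bard1 passed that filter, at 6.42, only through its induced arrays, since its uninduced arrays lay at 6.41, 6.19 and 6.05. Its call there is thus no added support. Rad54l and Brip1 also passed with a pseudocount of 64 (0.671% of all genes higher) and with a trended and robust variance (1.30%). In every one of these settings the genes that passed were higher in induced cells.

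The other genes of these pathways, from lists of the same kind, had like medians. Of 45 other recombination and Fanconi genes 34 were positive, with a median of 0.32 and 0 past the threshold in limma. At an unadjusted p under 0.05 in limma, 16 were higher and 0 lower, against 7.14% and 10.3% of all genes. Those with the smallest p were Fignl1, an ATPase that acts on recombinase filaments (1.12 ± 0.20), Rpa2, a subunit of the single-strand binding protein (0.83 ± 0.16), Eme1, a partner of the MUS81 nuclease (0.87 ± 0.18), and Faap24, which binds FANCM (0.74 ± 0.16). Of 15 other mismatch repair genes, most of them shared with replication, 10 were positive, with a median of 0.29 and 0 past the threshold in limma. Unadjusted, 5 were higher and 1 lower at a p under 0.05 in limma (7.14% and 10.3% of all genes). The clamp loader genes Rfc3 (0.88 ± 0.15) and Rfc5 (0.71 ± 0.16) and the ligase gene Lig1 (0.69 ± 0.15) were on one side. Pold4, the small subunit of polymerase delta, was on the other (-1.40 ± 0.39), with 9.48, 9.66 and 9.46 on induced and 10.01, 11.46 and 11.33 on uninduced arrays in log2 units. Of 22 other checkpoint genes 17 were positive, with a median of 0.25 and 0 past the threshold in limma. Unadjusted, 6 were higher and 0 lower at a p under 0.05 in limma (7.14% and 10.3% of all genes). Clspn, the adaptor by which ATR reaches CHEK1, stood at 0.82 ± 0.15, the phosphatase gene Cdc25a at 0.86 ± 0.17, the fork protection gene Tipin at 0.71 ± 0.17, and Hus1, of the clamp that ATR activation uses, at 0.54 ± 0.17.

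End joining and the excision repair pathways had medians near 0. The median was 0.01 over 12 end joining genes (6 positive), 0.04 over 18 base excision repair genes (10 positive) and 0.03 over 21 nucleotide excision repair genes (11 positive). In limma 0 genes of each passed. At an unadjusted p under 0.05 in limma, 0, 4 and 4 were higher, against 7.14% of all genes. In the same order 0, 0 and 1 were lower, against 10.3%. In end joining Xrcc4 stood at -0.55 ± 0.24, Paxx at -0.42 ± 0.21, Prkdc, the kinase of the pathway, at -0.33 ± 0.19, and Xrcc5, of the end-binding KU protein, at 0.73 ± 0.38. The higher base excision genes were Fen1, a flap nuclease that also serves replication (1.24 ± 0.26), Mpg, a glycosylase for alkylated bases (1.09 ± 0.24), Mbd4 (0.62 ± 0.23) and Apex2 (0.61 ± 0.17). In nucleotide excision repair Mnat1 stood at -0.71 ± 0.17, and Rad23b (0.59 ± 0.21), Ercc8 (0.51 ± 0.17) and Cdk7 (0.48 ± 0.17) were positive. The difference between these lists and the 30 genes was not tested. Without uninduced replicate 1, limma called 8 of the 45 other recombination and Fanconi genes higher, 2 of 15 other mismatch repair genes higher and 1 lower, 3 of 22 other checkpoint genes higher, and 1 of 12 end joining, 3 of 18 base excision and 1 of 21 nucleotide excision genes higher. Among all genes 3.22% were then called higher, and 867 of 18193 lower. Without both arrays numbered 1 limma called 5, 2, 1, 1, 2 and 1 of these lists' genes higher, in the same order, and 1 other mismatch repair and 1 nucleotide excision gene lower. Among all genes 2.88% were then called higher, and 953 of 18193 lower.

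Replication genes had a median above that of the 30 genes. Of 31 replication licensing and fork genes 30 were positive, with a median of 0.50 and 0 past the threshold in limma. At an unadjusted p under 0.05 in limma, 17 were higher and 0 lower, against 7.14% and 10.3% of all genes. The smallest p belonged to Gins1 (1.43 ± 0.18), Orc1 (1.41 ± 0.19), Gins2 (0.92 ± 0.14) and Mcm2 (1.06 ± 0.17). In limma 12 of the 31 were called higher without uninduced replicate 1 (3.22% of all genes) and 9 without both arrays numbered 1 (2.88%). The mean level of the list was 11.32 ± 0.08 (SD, n = 3) in induced and 10.74 ± 0.15 (SD, n = 3) in uninduced cells. More cells in S phase and more RNA per cell cannot be told apart in such bulk samples, and the part of cell cycle phase in the values of the 30 genes was not tested. Granulocyte and monocyte markers stood on the other side. Of 14 measured, 12 were negative, with a median of -0.93, and 0 passed in limma. At an unadjusted p under 0.05, 6 were lower and 0 higher, against 10.3% and 7.14% of all genes. Without uninduced replicate 1 limma called 3 lower, and 867 of all 18193 genes. Without both arrays numbered 1 it called 4 lower, and 953 of all 18193 genes. Their summed signal was 1657 to 4046 on induced and 2889 to 8006 on uninduced arrays. Of the 14, 10 had mean levels above the 5.89 of the silent genes. Prtn3 (10.93, difference -0.43) and Adgre1 (9.03, difference -2.18) were highest, and Elane, Ltf, Cd14 and Ctsg lay under 5.89. The part of these markers in the values of the 30 genes was not tested.

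**Figure D5:**
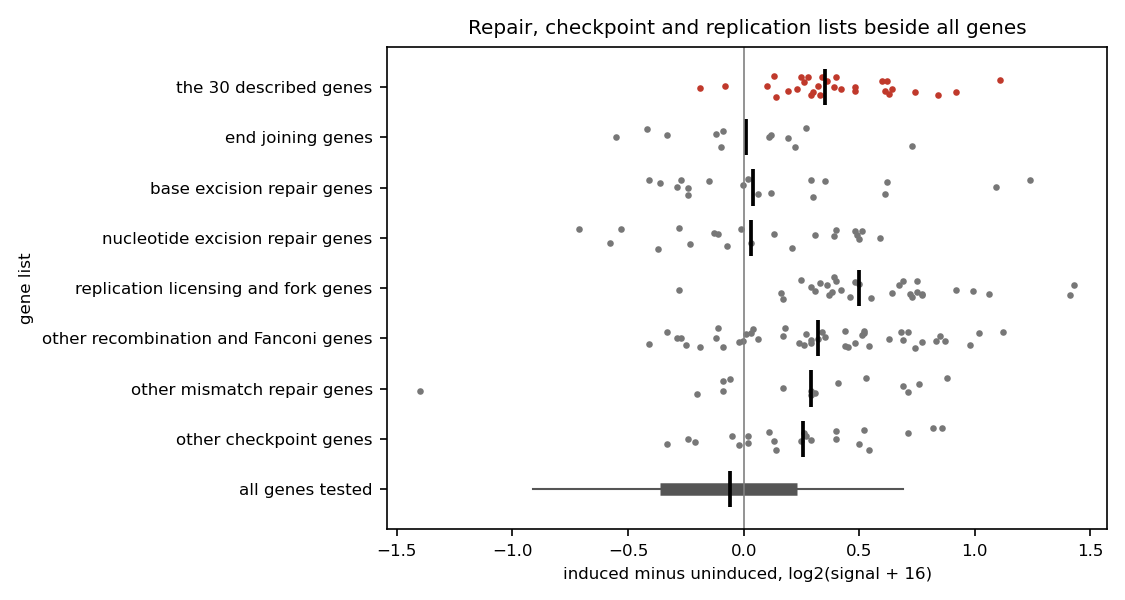
Difference between induced and uninduced cells, on the log2(signal + 16) scale, for each gene (points) of 8 lists, the 30 described genes in red, with the median as a black line; the bottom row gives all 18193 genes by their median, their 25th to 75th percentiles (box) and their 5th to 95th percentiles (line). The medians are 0.35 for the 30 genes, 0.50 for replication and 0.01 to 0.04 for the other 3 repair pathways, against -0.06 for all genes.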

How the data were processed

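RNA of 6 Ba/F3 cultures, 3 induced and 3 uninduced by their titles, was measured on 6 Affymetrix arrays. The authors deposited signal intensities on a linear scale, made with Affymetrix Expression Console 1.4.1 per the submitters' processing notes; no source used here names the summary algorithm. From the 45101 probe sets, 64 controls were left out, and of the rest 34945 with exactly 1 symbol were used, 932 had several symbols and 9160 none. Symbols were updated by Entrez number through the GRCm38.p6 table (34741 matched, 204 kept, 0 renamed). A pseudocount of 16 was added before log2, which understates changes of dim genes. Groups were compared with limma 3.58.1 (lmFit, eBayes, two-sided, 4 residual degrees of freedom, R 4.3.3), with Benjamini-Hochberg adjustment over 18193 genes and a threshold of 0.05, after the script was tested on simulated data. With 3 arrays a group, exact permutation allows no p under 0.10. The number of arrays limits the precision. All 30 measured genes are named, and of other repair and replication lists the 4 genes with the smallest p. Marker genes are those of highest and lowest level. Igll1, Pax5, Blk, Vpreb1, Ebf1, Cd79a, Il3ra, Elane, Ltf, Cd14 and Ctsg were named after their values were seen. The genes and lists were chosen with earlier results of these data known. Alternatives were a block for the replicate number, centring on the median, quantile normalization, a filter on level, other probe set rules, pseudocounts of 1 and 64, a trended variance and leaving out each array. Leaving out both arrays numbered 1, or treating them as a batch, was added after seeing the data.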

Additional observations from a re-analysis of the deposited data

How the results depend on the processing

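The median log2 difference of the 30 genes stayed positive under all 17 alternatives, between 0.25 and 0.44, the values without induced replicate 1 and without uninduced replicate 1, with 25 to 28 genes positive. The number of these genes past the threshold in limma was 0 as reported, 5 with the filter at the median level, 2 with a pseudocount of 64, 2 with trended and robust variance, 1 without both replicate 1 arrays and 0 to 4 when single arrays were left out, the 4 without uninduced replicate 1. Over all genes the count of 34 was 629 with the filter, 255 with a pseudocount of 64, 550 with trended and robust variance, 19 with the most variable probe set, 1477 without both replicate 1 arrays, and 0 with a pseudocount of 1 (1138 higher and 1669 lower at an unadjusted p under 0.05). Leaving out single arrays gave 0 to 1453 in limma: 1453 without uninduced replicate 1, 12 without induced replicate 1, 1 without induced replicate 3, and 0 without induced replicate 2 (913 higher and 1311 lower unadjusted), uninduced replicate 2 (748 and 1345) or uninduced replicate 3 (796 and 1210). The filter tests fewer genes, and it kept Bard1 only through its induced arrays. The cause of the other changes was not tested. With median centring 80.6% of calls were higher, in place of 61.8%; with the filter it was 42.9%, with trended and robust variance 43.1%, with a pseudocount of 64 47.8%, and with replicate 1 as a batch 24.0%.

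With the replicate number as a block, 0 genes and 0 of the 30 passed in limma (1275 higher and 1994 lower unadjusted over all genes, 8 and 0 among the 30). The labels do not say that a number marks a shared day or batch, and same-numbered arrays deviated together with correlations of 0.17, 0.08 and 0.08, each the highest of that uninduced array with the induced ones.

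Of 510 values of single genes under alternatives, 15 changed sign, 14 passed the threshold in addition and 481 kept both; no gene past the threshold as reported was there to be lost. With the most variable probe set Xrcc3 stood at -0.08, Fancc at 0.02 and Msh3 at -0.07, and without both replicate 1 arrays Rad52 stood at 0.24, Rad50 at -0.02, Xrcc3 at -0.28 and Msh6 at -0.16. When single arrays were left out, Rad52 ranged from -0.22 to 0.15, Rad50 from -0.04 to 0.25, Xrcc3 from -0.10 to 0.30, Fancm from -0.0028 to 0.65 and Msh6 from -0.03 to 0.21.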
